A study of Mus musculus with 6 samples.

Results

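A list of 10 lipid-associated macrophage genes was followed across the cells of the mouse proximal pulmonary artery (PA): *Apoe*, *Abca1*, *Lpl*, *Fabp5*, *Trem2*, *Gpnmb*, *Spp1*, *Lgals3*, *Cd9* and *Cd63*. They were chosen by symbol among the 53647 genes of the count tables, of which 35414 had a count in at least 1 kept cell. All 10 were found and all 10 had counts. Macrophages that take up lipoproteins or the membranes of dying cells switch on a shared set of genes for handling lipid, and such cells are known from adipose tissue, from atherosclerotic plaques and from the injured lung. The receptor TREM2 senses lipids and lipoproteins at the cell surface and signals through the adaptor TYROBP. Downstream of uptake, cholesterol is loaded onto APOE by the transporter ABCA1, while LPL splits triglycerides outside the cell and FABP5 carries the fatty acids inside it. GPNMB, SPP1 (osteopontin), LGALS3 (galectin-3) and the tetraspanins CD9 and CD63 complete the usual signature. None of these genes is private to macrophages, so their levels are given first in every cell type of the artery and only then by age.

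Cells came from the main PAs of wild-type C57BL/6J mice, with no transgene, deletion or treatment named, digested with collagenase and elastase and captured with 10x 3′ chemistry. The young group held 2 libraries of 3 months (young 1 and young 2). The old group held 4 libraries, of 20 months (old 1), 24 months (old 2), 28 months (old 3) and 27 months (old 4), and some old mice came from the aging colony of the National Institute on Aging and were aged further locally. The study describes 3 young mice, and 2 young libraries are analysed here. Going by the ages and sexes of the animals in the study's description, each library was taken as a single mouse, though the labels give no animal numbers. On that reading p-values measure the spread between animals together with any technical spread. A barcode counted as a cell if it held 500 or more unique molecular identifiers (UMIs, each standing for one captured RNA molecule) and 300 or more genes, with no more than 20% of its UMIs mitochondrial. After removal of doublets 15321 cells remained. Clusters were named X-like where at least 40% of a cell type's markers were raised. Macrophage-like subclusters also needed a raised C1q gene (*C1qa*, *C1qb* or *C1qc*). They stayed unnamed where markers of another type prevailed among the leading genes. A subcluster of 41 cells led by *Tpsb2* and *Cpa3*, with all 10 macrophage markers raised, was thus left unnamed. For monocyte- or dendritic-like subclusters at least 3 raised markers of either type sufficed. Macrophage-like cells (MΦs), fibroblast-like cells (FBs), smooth muscle-like cells (SMCs) and endothelial-like cells (ECs) are abbreviated below, and alveolar macrophage-like cells were kept apart from MΦs.

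Depth and make-up differed between libraries. Total UMIs ran from 6355125 to 50436562, kept cells from 929 to 4024 and median UMIs per cell from 799 to 8056.5, with 841 and 817 in the young libraries. Young 1, young 2 and old 2 shared between 130 and 213 barcodes of kept cells per pair, while no other pair shared more than 4. Of the cells with a shared barcode 406 were airway epithelial-like and 18 were MΦs. Values are therefore also given within this set of 3 libraries, in which old 2 is the single old library. Old 1, described as a male, held 3113 counts of *Xist* beside 8488 of *Ddx3y* and 25 of *Eif2s3y*, and young 2, labelled female, held 1300 of *Xist* beside 210 of *Ddx3y* and 89 of *Eif2s3y*. Young 1 held 437 counts of *Xist* beside 556 of *Ddx3y* and 219 of *Eif2s3y*, and old 2 held 335 beside 905 and 379. The counts were more one-sided in old 3 (21952 of *Xist*, 3 of *Ddx3y*) and old 4 (230 and 6272). With *Xist* and Y-linked counts side by side in old 1, old 2, young 1 and young 2, a single mouse behind each of these libraries is not established. No value here is drawn from sex. Without old 1 the log2 fold changes given below for *Apoe* and *Trem2* in MΦs were 0.71 and 0.50 and that for *Apoe* in FBs was 2.08, and without young 2 they were 1.35, 0.25 and 1.60. There were 1389 MΦs, 280 in young 1, 54 in young 2 and 126, 179, 496 and 254 in old 1 to old 4. At least 9 of the 10 macrophage markers were detected in MΦs of every library, at a summed level of 6062 to 17555 CPM (counts scaled to the total UMIs of each sum, on the usual CPM scale), against 0 to 126 CPM in FBs. In sums per cell type, fewer cells with much RNA of a gene and more cells with little of it cannot be told apart.

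Promoters were matched for 8 of the 10 genes in RefSeq (GRCm38.p6), and no entry was found for *Fabp5* and *Lpl*. The 250 bases before the transcription start are shown for *Trem2*, *Gpnmb* and *Spp1*, whose cells are counted together below. *Trem2* lies on the plus strand, with its promoter at chr17:48346151-48346400. The promoter of *Gpnmb*, also on the plus strand, is at chr6:49036268-49036517, and that of the first of both starts of *Spp1*, again on the plus strand, is at chr5:104434861-104435110. Capitals mark matches on either strand to 4 motifs, an E-box (CACGTG, bound by lysosomal regulators such as TFEB and MITF), an AP-1 site (TGANTCA), a PU.1 core (AGGAAGT) and a TATA box (TATAAA).
Trem2: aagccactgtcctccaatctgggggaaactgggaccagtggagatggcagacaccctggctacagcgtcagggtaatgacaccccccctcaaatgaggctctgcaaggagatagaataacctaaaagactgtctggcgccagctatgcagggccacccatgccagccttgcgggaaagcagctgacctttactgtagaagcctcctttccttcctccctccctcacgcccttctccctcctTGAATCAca
Gpnmb: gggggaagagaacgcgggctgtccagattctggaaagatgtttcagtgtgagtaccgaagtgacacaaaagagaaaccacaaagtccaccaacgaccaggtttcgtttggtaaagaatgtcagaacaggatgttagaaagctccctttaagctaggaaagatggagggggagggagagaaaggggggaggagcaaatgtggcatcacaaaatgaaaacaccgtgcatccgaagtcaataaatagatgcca
Spp1: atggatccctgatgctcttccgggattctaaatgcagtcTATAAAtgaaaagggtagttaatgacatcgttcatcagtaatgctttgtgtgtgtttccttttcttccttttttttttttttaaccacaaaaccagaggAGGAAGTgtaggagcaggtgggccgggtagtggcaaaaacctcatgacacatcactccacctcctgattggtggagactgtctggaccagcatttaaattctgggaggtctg
The *Trem2* window held 1 AP-1 match, and the *Spp1* window held 1 PU.1 core and 1 TATA box match. None of the 4 motifs was found in the *Gpnmb* window. Among the 32536 promoters of the same length, 6.04% held the E-box, 6.73% the AP-1 site, 7.70% the PU.1 core and 12.3% the TATA box. A match describes letters and not a bound site.

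By mean level over libraries, 3 of the 10 genes were highest in MΦs (*Apoe*, *Abca1* and *Trem2*) among the 16 types with at least 10 cells in a library. Another 4 (*Lpl*, *Gpnmb*, *Spp1* and *Lgals3*) were highest in alveolar macrophage-like cells, which only 2 libraries held in number. The remaining 3 were highest outside the myeloid cells, *Fabp5* in mesothelial-like cells, *Cd9* in platelet-like cells and *Cd63* in SMCs. The clusters were drawn without these genes among the variable ones. Levels between types are a description and were not tested.

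**Figure D1:**
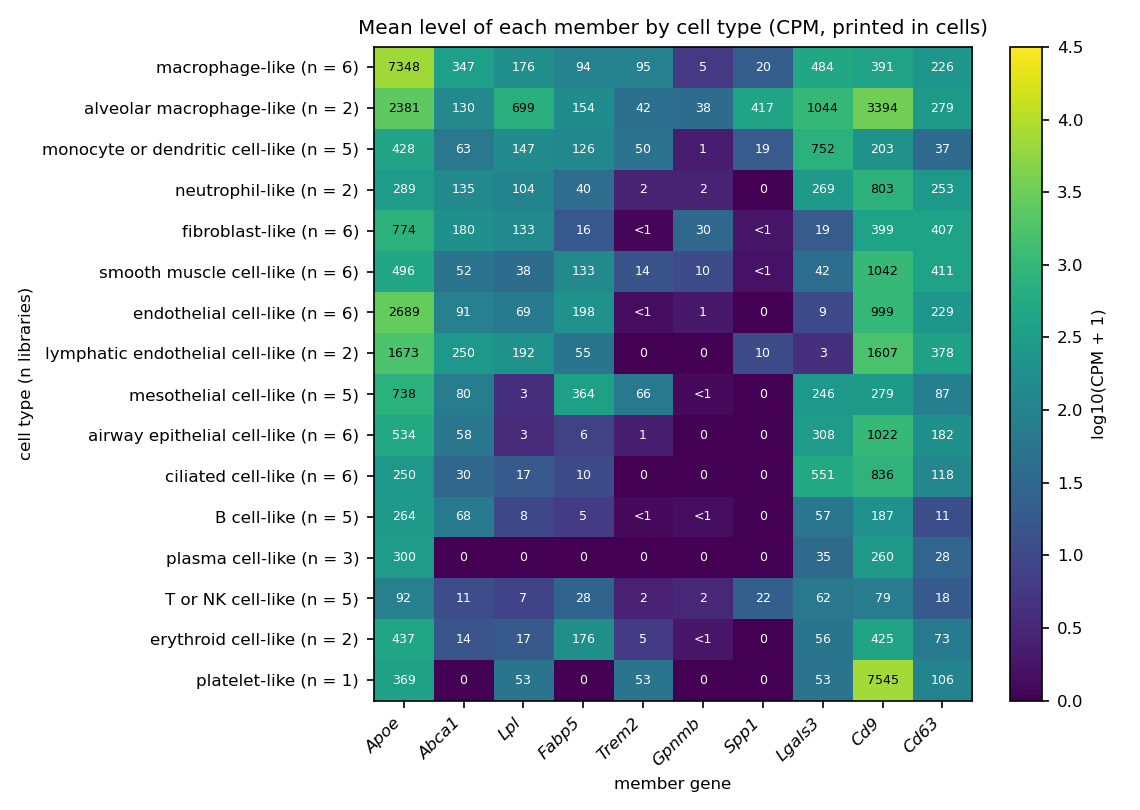
Mean CPM of each gene (columns) in each cell type (rows, with the number of libraries), colour on a log10(CPM + 1) scale and the CPM printed in each cell. The MΦ row leads for Apoe, Abca1 and Trem2, while Gpnmb is highest in the alveolar macrophage row, followed by the fibroblast row, and Cd9 in the platelet row.

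*Apoe*, which encodes the apolipoprotein that carries cholesterol between cells, reached 7348 ± 5092 CPM (SD, n = 6) in MΦs and had a UMI in 72.2% of them. ECs came next with 2689 ± 985 CPM (SD, n = 6), and the ranges of both types over libraries overlapped. In ECs 78.8% of cells had an *Apoe* UMI, and the level lay above that of free RNA in 6 of 6 libraries, where free RNA is the RNA in barcodes of at most 50 UMIs (165 to 2271 CPM of *Apoe*). The ratio of *Apoe* counts to summed counts of the macrophage genes *C1qa*, *C1qb* and *C1qc* was 1.16 in MΦs and 1.79 in free RNA but 59.4 in ECs. ECs thus held far more *Apoe* for each C1q count than either MΦs or free RNA. MΦs were named in part by these C1q genes, so their low ratio is not independent of the naming. The ratio was also 43.3 in airway epithelial-like and 16.9 in B-like cells, which hold few C1q counts as well, so a high ratio is not particular to ECs. FBs had 774 ± 569 CPM (SD, n = 6) and SMCs 496 ± 523 CPM (SD, n = 6), and each of these types exceeded free RNA in 3 of 6 libraries. B-like cells lay below the free RNA of their library in 5 of 5 libraries.

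*Abca1*, the cholesterol exporter, had 347 ± 217 CPM (SD, n = 6) in MΦs, 250 ± 31.0 CPM (SD, n = 2) in lymphatic endothelial-like cells and 180 ± 79.6 CPM (SD, n = 6) in FBs. These ranges overlapped from each type to the next. In both MΦs and FBs the level exceeded free RNA in 6 of 6 libraries.

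*Lpl*, which encodes the lipase that frees fatty acids from circulating triglycerides, was most abundant in 24 adipocyte-like cells, at 2872 CPM over all libraries together. Among types with at least 10 cells in a library it was highest in alveolar macrophage-like cells, at 699 ± 193 CPM (SD, n = 2), followed by lymphatic endothelial-like cells and MΦs at 192 ± 68.4 (SD, n = 2) and 176 ± 84.1 CPM (SD, n = 6). The ranges of lymphatic endothelial-like cells and MΦs overlapped. Free RNA carried from 42.0 CPM of *Lpl* in old 4 to 493 CPM in young 2, and the MΦ level exceeded free RNA in only 3 of 6 libraries. Among ECs, the 203 cells of the cluster led by *Gpihbp1*, the gene of the capillary protein that holds LPL at the vessel wall, had 905 CPM of *Lpl* against 19.4 to 47.8 CPM in the other EC clusters.

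*Fabp5*, a fatty acid binding protein, had its highest mean outside the myeloid cells. Mesothelial-like cells had 364 ± 144 CPM (SD, n = 5) and ECs 198 ± 110.2 CPM (SD, n = 6), while MΦs had 93.6 ± 107 CPM (SD, n = 6) and exceeded free RNA in 3 of 6 libraries. The ranges of these types overlapped. Reads of *Fabp5* can be shared with its near copy *Fabp5l2*, and reads of *Cd63* with its pseudogene, so counts of both genes carry that uncertainty.

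*Trem2* was measured at 94.6 ± 56.7 CPM (SD, n = 6) in MΦs, with a UMI in 26.2% of 1389 cells. The next type was mesothelial-like cells, the lining of the organ surface, at 65.7 ± 16.9 CPM (SD, n = 5) and 12.2% of 796 cells. Their range lay inside that of MΦs and above free RNA in 5 of 5 libraries. *Trem2* counts per C1q count were 2.71 in mesothelial-like cells, 0.0132 in MΦs and 0.0232 in free RNA, and mesothelial-like cells held 149 *Trem2* counts beside 55 C1q counts. ECs, FBs and airway epithelial-like cells had *Trem2* in 0.283%, 0.396% and 0.0966% of cells, and ciliated-like cells in 0 of 331, which allows a level of up to 2.09 CPM (exact Poisson, 95%, counting error only). The monocyte-like subcluster led by *Gm9733* and *Chil3*, with 60 cells of old 2 and 85 of old 3 among its 146, had *Trem2* in 30.1% of cells. Of all monocyte- or dendritic-like cells 3 of 200 in old 2 (median 996.5 UMIs) and 40 of 98 in old 3 (median 7640.0 UMIs) had a *Trem2* UMI, so that nearly all such cells came from old 3. An unnamed cluster of 40 cells led by *Cxcl13* had 148 CPM. The unnamed subcluster of 41 cells with all 10 macrophage markers raised had 140 CPM of *Trem2*, 16221 CPM of *Apoe* and 542 CPM of *Cd63*.

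*Gpnmb*, a glycoprotein of lysosome-rich cells often used to mark lipid-laden macrophages, had most of its counts in FBs, which held 528 of its 685 counts, at 30.3 ± 27.3 CPM (SD, n = 6), and 19.0% of 1768 FBs had a UMI. In SMCs 124 counts were found, and in MΦs 9, at 4.72 ± 5.95 CPM (SD, n = 6). The MΦ level exceeded that of free RNA in 1 of 6 libraries. Alveolar macrophage-like cells had the highest mean, 37.8 ± 25.3 CPM (SD, n = 2), but from 5 counts. *Gpnmb* counts per C1q count were 1.77 in FBs against 0.0382 in free RNA and 0.000156 in MΦs.

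*Spp1* (osteopontin, a ligand of integrins and of CD44) was sparse, with 191 counts in all sums together, 105 of them in MΦs. The level in MΦs was 20.3 ± 15.6 CPM (SD, n = 6), above free RNA in 6 of 6 libraries, and 1.30% of MΦs had a UMI. Only 1 MΦ in young 2, 1 in old 1 and 2 in old 4 had such a UMI. Of the 105 counts 74 lay in 2 cells of old 3. T- or NK-like cells, with 22.4 ± 14.4 CPM (SD, n = 5) from 21 counts, overlapped with MΦs. Alveolar macrophage-like cells had 17 counts in 40 cells and the highest mean, but 15 of these counts lay in the 13 cells of old 2 (835 CPM), while the 19 cells of old 3 had 0 counts. Their rank thus rests on 1 library. None of 2120 ECs, 1035 airway epithelial-like, 796 mesothelial-like and 2482 B-like cells had a count, which allows at most 0.640, 1.15, 1.52 and 0.894 CPM (exact Poisson, 95%).

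*Lgals3* (galectin-3, a lectin of phagocytes and epithelia) was shared more widely, at 1044 ± 413 CPM (SD, n = 2) in alveolar macrophage-like cells, 752 ± 431 CPM (SD, n = 5) in monocyte- or dendritic-like cells, 551 ± 285 CPM (SD, n = 6) in ciliated-like cells and 484 ± 263 CPM (SD, n = 6) in MΦs. All these ranges overlapped, whereas ECs had 8.78 ± 9.15 CPM (SD, n = 6) and did not exceed free RNA in any library.

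By mean level both tetraspanins were more abundant in SMCs than in MΦs, with overlapping ranges. ECs were near MΦs in *Cd63* (229 CPM), as were FBs in *Cd9* (399 CPM). *Cd9* had 1042 ± 322 CPM (SD, n = 6) in SMCs, 1022.5 ± 289 CPM (SD, n = 6) in airway epithelial-like cells and 999 ± 316 CPM (SD, n = 6) in ECs, against 391 ± 319 CPM (SD, n = 6) in MΦs. It was highest in 14 platelet-like cells of old 3 (7545 CPM), and in alveolar macrophage-like cells it differed between the libraries that held them, with 6289 CPM in old 2 and 498 CPM in old 3. *Cd63*, a tetraspanin of late endosomes, was at 411 ± 237 CPM (SD, n = 6) in SMCs, 407 ± 116 CPM (SD, n = 6) in FBs and 226 ± 164 CPM (SD, n = 6) in MΦs. The SMC and FB ranges overlapped, and both types exceeded free RNA in 6 of 6 libraries.

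Within MΦs the genes were highest in different cells. The MΦs fell into 10 subclusters, and libraries drew their MΦs from different ones. A subcluster led by *Marco* gave 219 of the 280 MΦs of young 1, and one led by *Prg4* gave 36 of 54 in young 2 and, as the largest of several, 89 of 179 in old 2. In old 1, 114 of 126 MΦs lay in a subcluster found in no other library. The subcluster led by *Ccl8*, *Cd209f*, *Cd209d*, *C6* and *Clec10a* gave 290 of 496 MΦs in old 3, and the one led by *Fxyd2*, *F13a1* and *Ccl24* gave 189 of 254 in old 4. Only the subcluster led by *Ms4a7*, *Retnla*, *Aif1*, *Fcer1g* and *Mgl2* (170 cells) was found in all 6 libraries.

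**Figure D2:**
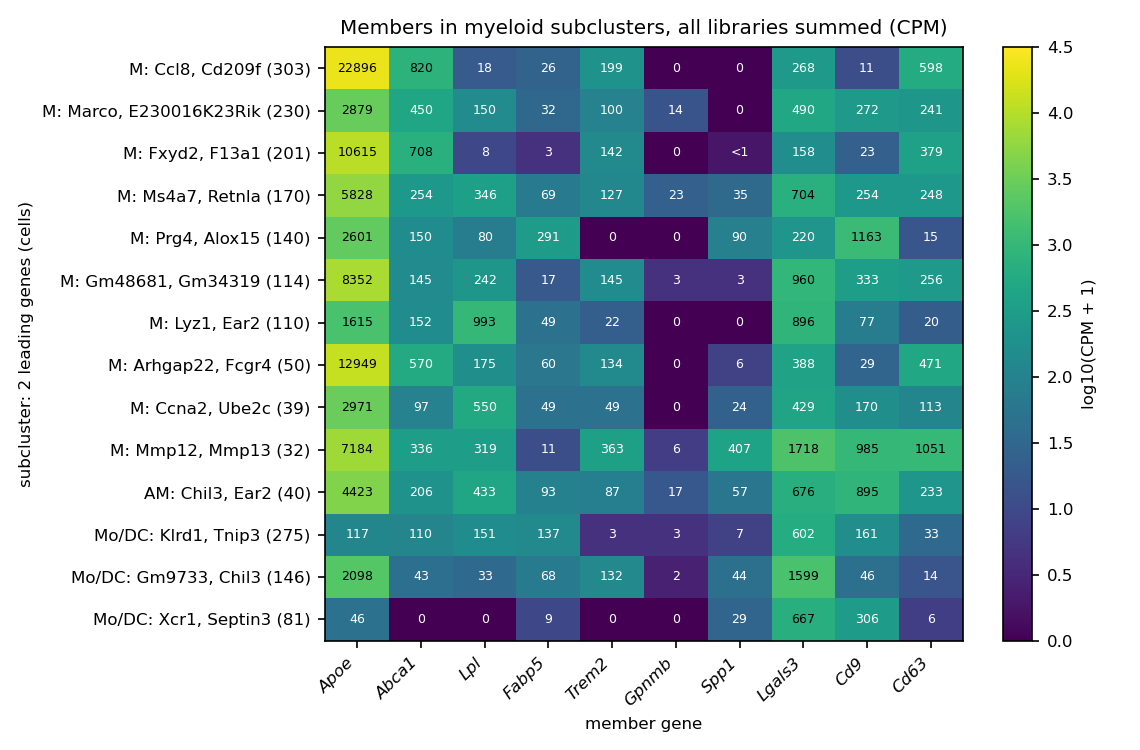
CPM of each gene (columns) in each myeloid subcluster (rows, named by 2 leading genes with the number of cells), all libraries summed, colour on a log10(CPM + 1) scale; M, AM and Mo/DC stand for macrophage-, alveolar macrophage- and monocyte- or dendritic-like. The Mmp12-led row combines high Trem2, Spp1, Lgals3, Cd9 and Cd63, while Gpnmb is near 0 throughout.

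A small subcluster of 32 MΦs combined high levels of several list genes. It was led by *Mmp12* (macrophage elastase), *Mmp13* (a collagenase), *H2-M2*, *Zmynd15* and *Ms4a7*, and 22 of its cells came from old 3, 8 from old 4 and 1 each from old 1 and old 2. *Trem2* stood at 363 CPM, with a UMI in 53.1% of cells, *Cd63* at 1051 CPM, *Lgals3* at 1717.5 CPM and *Cd9* at 985 CPM. Its *Trem2*, *Cd63* and *Lgals3* levels were above those of every other MΦ subcluster. *Spp1* reached 407 CPM, with all 74 counts in 2 cells. *Gpnmb* had 1 count and *Fabp5* 2 counts, so the subcluster carried part of the list. The 40 alveolar macrophage-like cells had more *Fabp5* (93.2 CPM), more *Lpl* (433 against 319 CPM) and 5 *Gpnmb* counts. They had less *Trem2* (86.5 CPM), *Cd63* (233 CPM), *Lgals3* (676 CPM) and *Cd9* (895 CPM). Likeness to the whole signature was not measured.

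The *Ccl8*-led subcluster was the richest in *Apoe*, at 22896 CPM with a UMI in 303 of 303 cells, and in *Abca1*, at 820 CPM. *Trem2* was found in 56.1% of its cells. *Cd9* was nearly absent at 11.3 CPM, *Lpl* was at 18.3 CPM, and *Spp1* and *Gpnmb* had 0 counts, which allows 1.98 CPM. The *Fxyd2*-led subcluster showed the same arrangement, with *Apoe* at 10615 CPM, *Abca1* at 708 CPM, *Trem2* at 142 CPM and *Cd9* at 22.6 CPM. In contrast, the *Prg4*-led subcluster (*Prg4*, *Alox15*, *Slpi*, *Saa3* and *Serpinb2*) had *Cd9* in 63.6% of 140 cells (1163 CPM), *Fabp5* at 291 CPM and no *Trem2* count. *Cd63* there had 3 counts, the lowest level of all MΦ subclusters. The subcluster led by *Lyz1*, *Ear2* and *Tnip3* was the main source of *Lpl* among MΦs, with 993 CPM and 977 of the 1381 counts.

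Cells of the same subcluster also differed between libraries. In the *Prg4*-led subcluster *Apoe* stood at 8325 and 7989.5 CPM in young 1 and young 2 (128 and 316 counts) and at 519 CPM in old 2 (75 counts). Old 2 lies in the set that shares barcodes and is 1 old library, so no test was made. In the *Ms4a7*-led subcluster *Apoe* was at 4699 and 3586 CPM in the young libraries and at 2796, 6967 and 12594 CPM in old 2, old 3 and old 4, with fewer than 10 cells in old 1.

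The test of age asked which genes differ between old and young cells of a type. UMI counts were summed per library and type and compared with edgeR's quasi-likelihood test, Benjamini-Hochberg adjusted over all genes tested. A gene was tested where over 5% of cells had a count in at least 3 libraries. In MΦs 8 of the 10 genes were tested (*Gpnmb* and *Spp1* were too sparse) and none passed an adjusted p of 0.05, nor did any of all 5840 genes (0% called). At an unadjusted p under 0.05 there were 372 genes (6.37%), and 371 (6.35%) also had a fold change over 2, the threshold of the study. None of them was from the list. No list gene had all old libraries above both young ones (10.8% of all genes) or all below (6.46%). DESeq2 called 5 genes, again none from the list. Of the 8 genes 6 had a log2 fold change above 0 and 2 below, with a median of 0.45 against 0.089 over all genes tested.

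*Apoe* in MΦs was at 3123 and 6813 CPM in the young libraries and at 8285, 1359, 15901 and 8610 CPM in old 1 to old 4. Old 2 was the lowest and the other 3 old libraries lay above both young ones, so the groups overlapped. The log2 fold change was 0.63 (SE 0.86, edgeR adjusted p = 0.855). For *Trem2*, too, old 2 was lowest and the other old libraries highest, with 89.0 and 38.2 CPM in the young and 139, 17.6, 158 and 125 CPM in the old libraries (log2 fold change 0.58, SE 0.73, edgeR adjusted p = 0.852). *Cd63*, at 223 and 19.1 CPM and 262, 70.6, 468 and 315 CPM, gave 0.95 (SE 0.82, edgeR adjusted p = 0.804). In all 3 genes the single old library of the set that shares barcodes sat at or near the bottom. With that set as a covariate these log2 fold changes became -1.75, -1.84 and -0.80. Every library outside the set is old, so a fit with this covariate compares old 2 alone with young 1 and young 2. Free RNA held 165 and 172 CPM of *Apoe* in the young libraries and 842, 222, 2271 and 1041.5 CPM in old 1 to old 4, below the MΦs of its library in 6 of 6 libraries, and its part in these values was not tested.

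For *Abca1* the young libraries had 412 and 191 CPM and the old ones 146, 141, 595 and 597 CPM, so that the deep libraries old 3 and old 4 stood above all others. *Lpl* was at 137 and 95.4 CPM against 232, 110.3, 317 and 162 CPM, and *Lgals3* at 508 and 305 CPM against 961, 349, 551 and 231 CPM. Neither separated the ages, and the log2 fold changes of the 3 genes were 0.14, 0.70 and 0.32 (SE 0.67, 0.52 and 0.66). The next pair was highest in young 2 and old 2. *Cd9* had 386 and 592 CPM in the young and 345, 896, 75.4 and 55.6 CPM in the old libraries, and *Fabp5* 37.1 and 229 CPM against 16.6, 234, 37.1 and 8.31 CPM. Young 2 and old 2 were also the libraries in which the *Prg4*-led subcluster was the largest. Their log2 fold changes were -0.44 (SE 1.19) and -0.70 (SE 1.67). *Spp1* had 12 counts in young and 93 in old MΦs, and *Gpnmb* had 3 and 6. By library *Spp1* was at 40.8 and 19.1 CPM against 3.31, 30.9, 26.5 and 1.28 CPM and *Gpnmb* at 11.1 and 0 CPM against 3.31, 13.2, 0.639 and 0 CPM. Both overlapped between ages, and the highest *Gpnmb* value was that of an old library. Of the 93 old *Spp1* counts 74 lay in 2 cells of old 3.

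**Figure D3:**
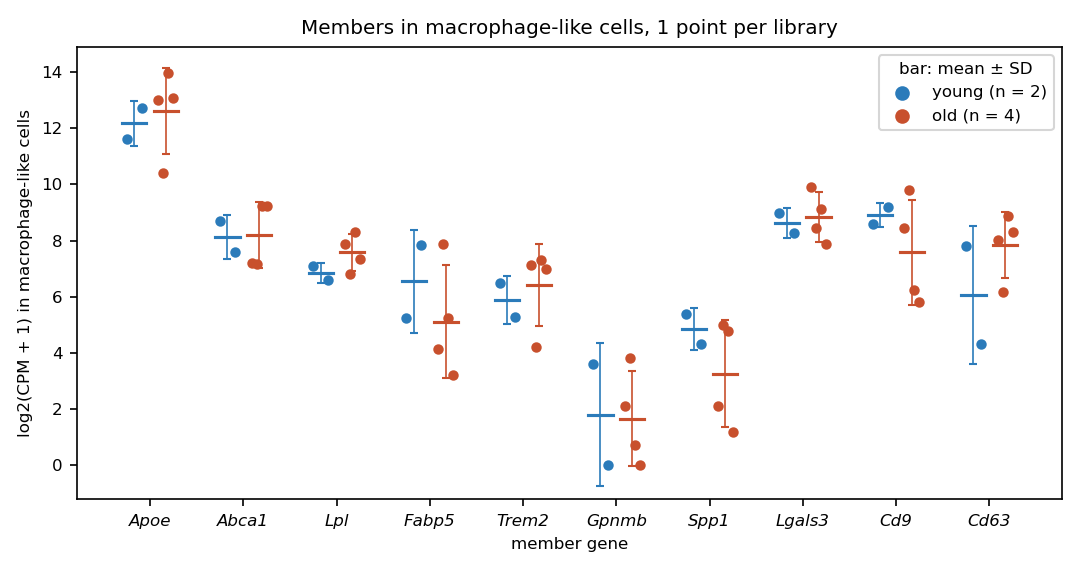
Level of each gene (x axis) in MΦs on a log2(CPM + 1) scale, 1 point per library, young in blue (n = 2) and old in orange (n = 4), with bars for the mean ± SD. Old and young points overlap for all 10 genes.

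In a further fit the *Marco*-led subcluster and the *Lyz1*- and *Ear2*-led one, whose leading genes include markers of other myeloid cells, were left out. Of the young MΦ counts, the *Marco*-led cells of young 1 held 22 of 26 for *Trem2* and 52 of 61 for *Cd63*. On the few young counts left, the log2 fold change of *Trem2* was 1.86 (edgeR adjusted p = 0.656). That of *Cd63* was 2.14 (edgeR adjusted p = 0.644). Within the *Ms4a7*-led subcluster alone the values were 0.50 for *Trem2* and 1.19 for *Apoe*. No gene of the list passed in either fit, both of which were chosen after the clusters were seen.

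The share of MΦs with at least 1 UMI of *Trem2*, *Gpnmb* or *Spp1* was compared after every cell was thinned to 500 UMIs. Young 1 had 4.29% and young 2 had 3.70%, and old 1 to old 4 had 4.76%, 2.79%, 6.05% and 6.30%. Means were 3.99% ± 0.412 (SD, n = 2) and 4.98% ± 1.60 (SD, n = 4), a difference of 0.981 points (two-sided exact permutation p = 0.533, where 0.133 is the smallest p possible). Of the old libraries 3 were above both young ones and old 2 was below both. With all UMIs counted the shares were 8.57% and 5.56% against 16.7%, 5.03%, 44.8% and 39.4%. The median UMIs per MΦ were 851 and 759.5 against 2262.5, 1046, 5779.5 and 6223, so the libraries with the largest unthinned shares, old 3 and old 4, were also the deepest, whereas old 2 had the lowest share and was deeper than both young libraries. As background, 1 of 1035 airway epithelial-like cells (median 1350 UMIs) and 4 of 2482 B-like cells (median 783 UMIs) had such a UMI, and 0 and 1 after thinning. Other types had more, with 12.2% of mesothelial-like cells, through *Trem2*, and 19.2% of FBs, through *Gpnmb*. After thinning these were 3.14% and 2.38%, against 5.11% of all MΦs, so the share is not particular to MΦs. *Trem2* carried the share, with a UMI in 364 MΦs, against 18 for *Spp1* and 7 for *Gpnmb*. *Trem2* and *Spp1* met in 5 cells, *Trem2* and *Gpnmb* in 5, and all 3 in 2.

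In FBs *Apoe* differed between ages before adjustment, and *Gpnmb* was detected in old cells alone. *Apoe* stood at 328 and 95.6 CPM in young FBs and at 1258, 441, 1527 and 994 CPM in old 1 to old 4. The lowest old library, old 2, was above the higher young one. The log2 fold change was 2.18 (SE 0.62, unadjusted p = 0.00279), which did not pass after adjustment over 6936 genes (edgeR adjusted p = 0.677). Young FBs gave 28 *Apoe* counts from 119 cells, for a ratio of old to young CPM of 4.70 (95% counting interval 3.25 to 7.08). With the set of libraries as a covariate the log2 fold change was 1.06, with doublets kept 0.76, and without young 1 3.73 (2 young counts). *Apoe* in free RNA, given above, was likewise lower in both young libraries than in the old ones and lay above the FB level in young 2, old 3 and old 4. FBs held 38.8 *Apoe* counts per C1q count against 1.79 in free RNA, and airway epithelial-like cells held 43.3.

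*Gpnmb* had no count in the 119 young FBs and 31.2, 29.7, 66.2 and 54.9 CPM in the old libraries, 528 counts in all. Set against 3 counts over the young group (29.95 CPM), the summed old FBs had at least 2.01-fold more, a bound carried by old 3 and old 4, since old 1 and old 2 lay at about that floor. The bound pools FB clusters that young and old libraries held in unlike numbers. It was not reached within the clusters with enough young cells, as given below. The gene passed the filter on low values only through the old libraries, so that its unadjusted p of 0.00583 (edgeR adjusted p = 0.677) is not independent of that filter. Thinned to 500 UMIs, *Gpnmb* was found in 0 of 90 and 0 of 29 young FBs and in 0.840%, 0.922%, 3.18% and 2.42% of old ones, and the zeros allow shares of up to 3.33% and 10.3%. The absence from young FBs was therefore not distinguishable at this depth from the level of old FBs cell by cell. *Gpnmb* RNA was present in the young samples, since free RNA held 23.6 and 9.90 CPM there. Free RNA of old 1 to old 4 held 14.7, 7.51, 7.48 and 4.20 CPM.

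**Figure D4:**
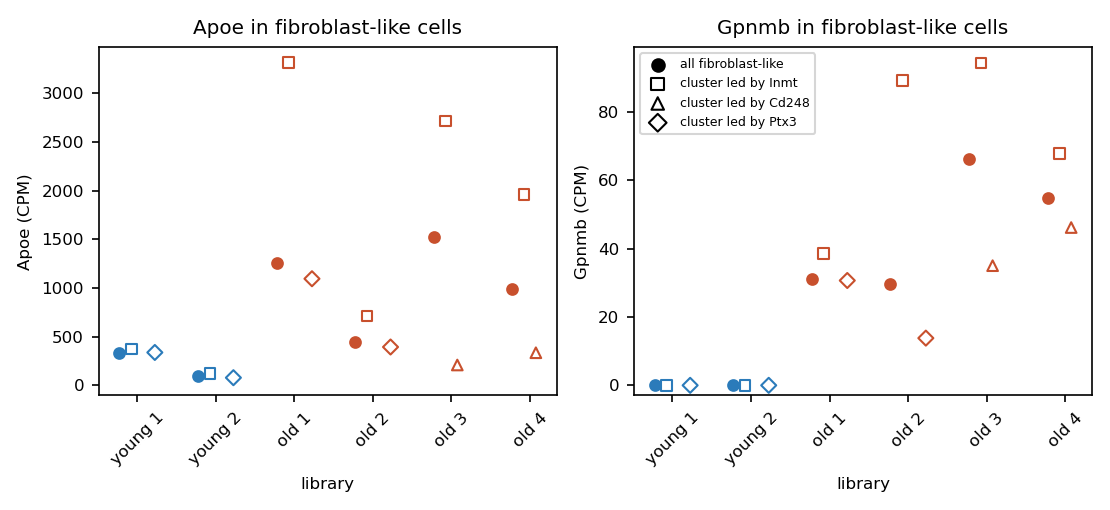
CPM of Apoe (left) and Gpnmb (right) in FBs per library, young in blue and old in orange; filled circles are all FBs, open symbols the clusters named by their leading gene. For all FBs the 4 old libraries lie above both young ones in both panels, the Cd248-led cluster has low Apoe, and the Inmt-led cluster carries the highest Apoe.

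The FBs of both ages came from different clusters. Of the 119 young FBs 79 lay in a cluster led by *Ptx3*, *Tnfaip6*, *Has1*, *Il6* and *Cxcl1*, genes of an acute inflammatory response, to which old 3 and old 4 gave 0 cells. The cluster led by *Inmt*, *Smoc2*, *Gdf10*, *Abca8a* and *Svep1* was present in all 6 libraries. In it *Apoe* was at 373 and 122 CPM in the young libraries (7 counts and 1 count) and at 3312, 714, 2715 and 1962 CPM in the old ones. Fitted on that cluster alone, chosen after the clusters were seen, the log2 fold change was 3.51 and passed (edgeR adjusted p = 0.00275), on 8 young counts from 36 cells. The number of all genes called in this fit is given in the last section. Their share of the genes tested in it is not given, so the call stands without a background rate. In the *Ptx3*-led cluster *Apoe* had 338 and 78.3 CPM in the young libraries and 1095 and 394 CPM in old 1 and old 2. In both clusters each old library with a value was above both young ones. That pattern was found in 17.7% of all genes tested in all FBs, and its share was not counted per cluster. The third FB cluster, led by *Cd248*, held 286 FBs of old 3 and 235 of old 4 but 4 young ones, and its *Apoe* was at 209 and 335 CPM in old 3 and old 4, near the 328 CPM of all FBs of young 1. The summed macrophage markers in FBs were at 126 and 0 CPM in the young libraries, with 3 and 0 of the 10 markers detected, and 74.1 to 93.7 CPM in the old ones, with 4 to 10 detected, and their part in the difference was not tested. *Gpnmb* in the *Inmt*-led cluster was at 38.5, 89.2, 94.2 and 67.8 CPM in old 1 to old 4. A floor of 3 counts stood there at 160 and 367 CPM in young 1 and young 2. In the *Ptx3*-led cluster *Gpnmb* was at 30.7 and 13.8 CPM in old 1 and old 2, under young floors of 53.3 and 235 CPM. Within either cluster an excess of *Gpnmb* in old FBs was thus not shown.

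*Cd9* and *Cd63* also had no old library within or below the young range. *Cd9* was at 278 and 287 CPM against 568, 530.1, 373 and 361 CPM (log2 fold change 0.83, SE 0.50, edgeR adjusted p = 0.789), and *Cd63* at 265 and 287 CPM against 574, 406, 472 and 438 CPM (0.90, SE 0.48, edgeR adjusted p = 0.788). With *Apoe* they were the tested list genes whose old libraries all lay above the young ones, beside *Gpnmb*, for which the filter on low values fixed that direction. The same held for 17.7% of all genes tested in FBs. By the threshold of the study, which 6.73% of all genes passed, *Apoe* passed, as did *Gpnmb*, whose p is not independent of the filter, and at an adjusted p under 0.05 none did, against 0.0433% (3 genes, 2 by DESeq2, and 469 or 6.76% at an unadjusted p under 0.05). None had all old libraries below the young ones, against 7.44% of all genes. The other tested genes overlapped between ages. *Abca1* had 341 and 143 CPM in the young and 139 to 164 CPM in the old libraries (log2 fold change -0.79), *Lpl* had 177 and 47.8 CPM against 128, 144, 219 and 84.4 CPM (0.14), and *Fabp5* and *Lgals3* rested on 3 young counts each (-0.97 and -0.58). *Trem2* and *Spp1* were too sparse to test in FBs, with 7 counts and 1 count, all in old libraries.

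**Figure D5:**
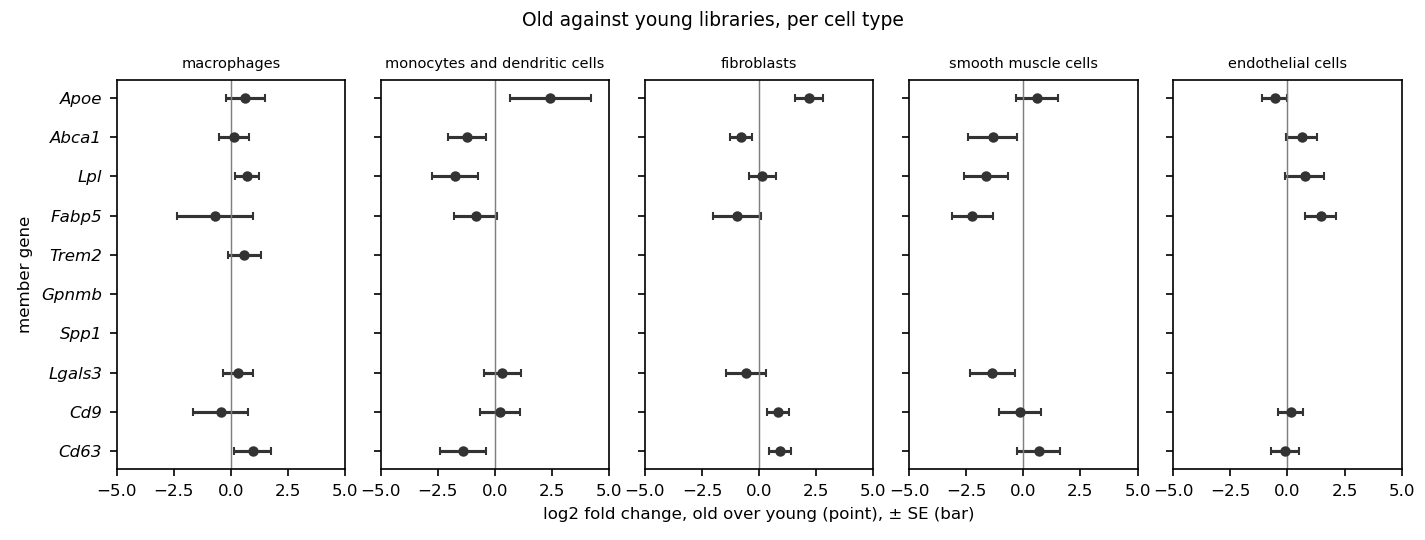
Fitted log2 fold change of old over young (point) ± SE (bar) for each gene in 5 cell types from edgeR; genes not tested are blank, and Gpnmb in FBs is left out because its young count was 0. Apoe in FBs lies farthest above 0 for its error, and no gene passed an adjusted p of 0.05.

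Monocyte- or dendritic-like cells had enough cells in both young and 3 old libraries (old 1 had 9), though young 2 held 11 and old 4 held 10. None of the 4166 genes tested was called (0%), 123 had an unadjusted p under 0.05 (2.95%), and DESeq2 called 0. None of the 7 list genes tested was among the 123. *Apoe* was at 162 and 0 CPM in the young libraries and at 167, 1786 and 21.4 CPM in old 2, old 3 and old 4, so that its log2 fold change of 2.42 (SE 1.76, edgeR adjusted p = 1.00) rested on old 3. Without old 3 it was -0.26, and with doublets kept -3.18. With coarser clusters, at a Leiden resolution of 0.5, it turned to -3.30 and passed (edgeR adjusted p = 0.0364), and the direction of *Apoe* in these cells is thus not settled by these data. The number of all genes called at that resolution is in the last section, and their share is not given. *Abca1*, *Lpl* and *Cd63*, 3 of 7 genes, had all old libraries below the young ones, against 10.3% of all genes tested. None had all of them above (13.4% of all genes). *Abca1* was at 94.3 and 121 CPM against 67.9, 34.1 and 0 CPM, from 19 young and 40 old counts (log2 fold change -1.24, SE 0.84, edgeR adjusted p = 1.00). *Lpl* was at 120.5 and 485 CPM against 109, 20.4 and 0 CPM (-1.76, SE 1.00, edgeR adjusted p = 1.00), and *Cd63* at 26.2 and 121 CPM against 13.6, 12.3 and 10.7 CPM (-1.40, SE 1.01, edgeR adjusted p = 1.00). In young 2 the 121 CPM of *Abca1* and that of *Cd63* each stood for a single count, on which their separation by age rests. The *Lpl* level of these cells lay above free RNA in 0 of 5 libraries. Free RNA held 199 and 493 CPM of *Lpl* in the young libraries and 204, 83.2 and 42.0 CPM in old 2 to old 4. Its part in the *Lpl* values was not tested. *Fabp5*, *Lgals3* and *Cd9* overlapped, with log2 fold changes of -0.84, 0.31 and 0.22. *Trem2*, too sparse to test, had 2 counts in the young and 83 in the old libraries, the latter at 13.6, 109.0 and 0 CPM in old 2, old 3 and old 4.

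SMCs were few in 3 libraries, with 25 and 36 cells in the young ones and 12 in old 2. The call rate was 0.107% of 7462 genes (8 genes, none from the list; 459 at an unadjusted p under 0.05, and 0 by DESeq2). *Fabp5* was the only one of 7 list genes at the study's threshold, which 6.15% of all genes passed. It had 0 and 325 CPM in the young libraries (8 counts, all in young 2) and 32.5, 414, 15.1 and 13.2 CPM in the old ones (log2 fold change -2.22, SE 0.90, unadjusted p = 0.0142, edgeR adjusted p = 0.750). High values stood in 1 library of each age, and without young 2 the sign turned. *Lpl* had all old libraries below the young ones, with 88.3 and 81.4 CPM against 8.13, 0, 23.6 and 27.1 CPM, from 4 young counts, a pattern found in 8.54% of all genes tested. The reverse pattern was found in none of the 7 and in 9.73% of all genes. The *Lpl* level of SMCs lay above free RNA in 0 of 6 libraries, and the part of free RNA in it was not tested. The log2 fold changes of the other 5 were 0.60 for *Apoe*, 0.68 for *Cd63*, -0.15 for *Cd9*, -1.35 for *Abca1* (3 young counts) and -1.35 for *Lgals3* (4 young counts), each with overlapping groups. *Gpnmb* had 1 young and 123 old counts in SMCs and was not tested.

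In ECs none of 6 list genes and none of 5859 genes was called (0%), with 338 at an unadjusted p under 0.05 (5.77%), 337 of them also past a fold of 2 (5.75%), and 1 by DESeq2. *Fabp5* came nearest, with 33.6 and 159.6 CPM in the young libraries (9 counts) and 267, 358, 212 and 159.3 CPM in the old ones (log2 fold change 1.46, SE 0.68, unadjusted p = 0.0507, edgeR adjusted p = 0.862). Old 4 lay just under young 2, so the groups overlapped, as they did for every tested list gene (11.9% of all genes had all old libraries above and 7.68% all below). *Apoe* was at 4299 and 2554 CPM against 3059, 1272, 2421 and 2529.7 CPM, without a separation by age (log2 fold change -0.56, SE 0.54, edgeR adjusted p = 0.937). For *Abca1*, *Lpl*, *Cd9* and *Cd63* the log2 fold changes were 0.63, 0.75, 0.15 and -0.10.

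Genes around the list were followed in 4 further lists written from general knowledge. In MΦs 7 of 8 signalling partners of TREM2 could be tested, with a median log2 fold change of 0.30, and 21 of 30 genes of cholesterol and fatty acid handling, with 0.043. Of the receptors and relatives of SPP1, galectin-3 and the tetraspanins 12 of 15 were tested, with a median of -0.079, and of the phagocytosis and lysosome genes 16 of 18, with 0.054. The median over all genes tested was 0.089. None of these genes passed an adjusted p of 0.05 in any of the 5 types, and in MΦs none had an unadjusted p under 0.05. The smallest p-values in MΦs belonged to *Cd44*, a receptor of SPP1, *Cd81*, a tetraspanin, *Vav1* and *Plcg2*, which act downstream of TYROBP, and the integrin gene *Itgax*. *Cd44* was at 1257 and 763 CPM in young and at 391, 671, 215 and 493 CPM in old libraries, below both young values in 4 of 4 (log2 fold change -1.21, SE 0.58, edgeR adjusted p = 0.751). That pattern was found in 6.46% of all genes tested in MΦs, and *Cd44* was picked here for its small p. *Cd81* was at 274 and 305 CPM against 696, 287, 736 and 649.7 CPM, with old 2 between the young values (0.95, SE 0.53, edgeR adjusted p = 0.755). At an unadjusted p under 0.05, 2 of 18 tested genes of the cholesterol list were higher and 1 lower in FBs, where 1 of 11 receptor genes was higher, against 6.76% of all genes. In SMCs 2 of 20 cholesterol genes were lower and 1 of 11 lysosome genes higher, against 6.15%. In ECs 1 of 13 cholesterol genes was lower, against 5.77%, and in monocyte- or dendritic-like cells 1 of 7 TREM2 partners was higher, against 2.95%.

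Likeness of pattern was measured as Pearson's r of log2(CPM + 1) over the 68 library-by-type sums, among 15532 genes with at least 100 counts. These sums share libraries and depth, and r is given as a description. *Trem2* was most like *Csf1r*, the receptor of the macrophage growth factor (r = 0.73), and *Cela1* (0.70), and *Spp1* most like *Cd200r4* (0.73) and *Bcl2a1a* (0.69). *Gpnmb* was nearest to *Adamtsl2* and *Myoc* (both 0.63). For *Apoe* the nearest were *Cd302* (0.70) and *Mcfd2* (0.68), for *Abca1* they were *Atrnl1* (0.78) and *Mylip*, a gene of LDL receptor turnover (0.73), and for *Lpl* they were *Nav1* (0.72) and *Pros1* (0.70). *Cd63* was closest to *Ctsl*, a lysosomal protease (0.80), and *Nfix* (0.80), *Cd9* to *Aldh2* (0.71) and *Id1* (0.63), *Lgals3* to *Vamp8* (0.63) and *Cebpa* (0.62), and *Fabp5* to *Gbp2* (0.63) and *Thsd7a* (0.61). Among the list genes themselves the highest r was 0.57, between *Abca1* and *Lpl*, and r between *Trem2* and *Gpnmb* was 0.0076. The nearest genes were the best of 15532, far more than the partners within the list, so both kinds of r cannot be compared.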

How the data were processed

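The authors digested main PAs, made 10x 3′ v3.1 libraries, trimmed reads with Cutadapt and counted UMIs with STARsolo on GRCm38.p6. They deposited raw UMI counts for each gene and barcode, unfiltered and not normalized. Most versioned gene identifiers differed from those of the annotation used here, so symbols are those of the files and coordinates are RefSeq's. The 10 genes and all lists were chosen with earlier results of these data known.

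Doublets were scored with scrublet, at its automatic threshold in 2 libraries and, where this marked under 0.5%, at an expected 0.8% per 1000 barcodes in 4, and 301 barcodes were removed. Cells were clustered in scanpy 1.11.5 (2000 variable genes without the 10 genes, 40 principal components, 15 neighbours, leidenalg 0.10.2 at resolution 1.0, no batch correction), and myeloid cells again on their own, giving 44 clusters and subclusters. Names required at least 40% and at least 3 of a type's markers (26 lists) raised 2-fold and found in 10% of cells. Macrophage-like subclusters also required a raised C1q gene, and stayed unnamed where markers of another type prevailed among the leading genes. Monocyte- or dendritic-like subclusters required at least 3 such markers of either type without the limit of 40%. These limits were set after the clusters were seen. Names were thus rebuilt and may differ from those of the study. Libraries with under 10 cells of a type were left out of that type.

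Counts summed per library and type were compared with edgeR 4.0.16 (quasi-likelihood F test, robust, TMM factors, p-values adjusted by Benjamini-Hochberg) in R 4.3.3, after a check on simulated data. The study's mixed model over cells was not used. The share was compared with an exact permutation test in scipy 1.17.1. Intervals (95%, exact Poisson or Clopper-Pearson) and floors (3 counts) cover counting error only. Named beside the 10 genes are the 5 list genes with the smallest p in MΦs, the 2 genes most like each of the 10 (at least 100 counts), and leading genes of clusters. Alternatives were other cell and gene filters, doublets kept, a Leiden resolution of 0.5, the 10 genes among the variable ones, thinning to 500 UMIs, shared barcodes left out, no TMM factors, DESeq2 1.42.0, the set of libraries as covariate, and leaving out each library. Single clusters, and MΦs without 2 subclusters, were added after the data were seen. Tables were handled with pandas 2.3.3, numpy 2.4.6 and anndata 0.12.19 in Python 3.11.15 and plots drawn with matplotlib 3.10.9.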

Additional observations from a re-analysis of the deposited data

Results flagged for a closer look

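In 35 groups of 4 old libraries looked at, 3 had 1 library apart from the rest, with a gap to its neighbour above Dixon's 95% limit for the group's range, which chance gives in about 1 in 20 groups. *Fabp5* in MΦs stood at 233.83 CPM in old 2, near the 229 CPM of young 2. In SMCs old 2, which held 12 of them, stood apart with 137.91 CPM of *Abca1* and 413.74 CPM of *Fabp5*, while young 2 had 122 and 325 CPM.

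*Cd63* differed in direction between cell types. Every old library was above the young ones in FBs and below them in monocyte- or dendritic-like cells (6 young and 13 old counts). The latter separation rests on a single count in young 2, and the log2 fold changes differed by 2.30. This difference was not tested.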

How the results depend on the processing

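No paired analysis was made, since young and old libraries were taken to be of different mice. Calls over all genes moved with the setting, and the cause was not tested. By the threshold of the study they numbered 337 in ECs, 467 in FBs, 371 in MΦs, 123 in monocyte- or dendritic-like cells and 459 in SMCs. DESeq2 called 1 in ECs, 5 in MΦs and 0 in SMCs. Without a gene filter 8, 10, 19, 9 and 36 were called in ECs, FBs, MΦs, monocyte- or dendritic-like cells and SMCs. In 1 cluster held by most libraries, chosen after the data were seen, 11 were called in FBs, 11 in MΦs and 2 in SMCs. Doublets kept gave 1 in FBs and 1 in SMCs, filterByExpr 0 in FBs, 1 in monocyte- or dendritic-like cells and 1 in SMCs, the set as covariate 0 in FBs and 0 in SMCs, and thinning 0 in FBs and 2 in SMCs. A resolution of 0.5 gave 15 in monocyte- or dendritic-like cells and 0 in SMCs, no TMM factors gave 1 and 14, and leaving out shared barcodes gave 3 in monocyte- or dendritic-like cells. Leaving out 1 library gave 0 to 2 in FBs, 0 to 24 in monocyte- or dendritic-like cells (24 without old 2) and 0 to 8 in SMCs. A lone young library was assumed to vary like the old ones.

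Of 554 log2 fold changes of the 10 genes under alternatives 498 kept direction and side of the threshold and 55 reversed. The remaining 1 kept direction and newly passed (*Apoe* in the *Inmt*-led FBs, 3.51). Among the reversed, *Apoe* in monocyte- or dendritic-like cells at a resolution of 0.5 newly passed as well. Of 36 results 25 reversed at least once and 13 did so with the set as covariate, where old 2 alone is compared with the young libraries. With that covariate *Lpl* in ECs was -1.11, and in MΦs *Apoe* was -1.75, *Abca1* -0.98, *Fabp5* 1.18, *Trem2* -1.84, *Lgals3* -0.095, *Cd9* 1.02 and *Cd63* -0.80. *Fabp5* in monocyte- or dendritic-like cells was 0.22, and in SMCs *Apoe* was -13.93 (old 2 is at 0), *Abca1* 0.86, *Fabp5* 1.04 and *Cd63* -2.72. In single clusters *Cd9* in ECs was -0.20, *Fabp5* in MΦs 1.35 and *Lgals3* in MΦs -0.30. At a resolution of 0.5 *Apoe* in monocyte- or dendritic-like cells was -3.30 (edgeR adjusted p = 0.0364), *Cd63* there 0.37 and *Cd9* in SMCs 0.21. With at least 1000 UMIs and 500 genes *Cd9* in MΦs was 0.23. With doublets kept *Apoe* and *Lgals3* in monocyte- or dendritic-like cells were -3.18 and -0.33 and *Apoe* in SMCs -1.01. *Cd63* in ECs was 0.066 with filterByExpr, 0.34 without a gene filter and 0.054 without shared barcodes, and *Cd9* in SMCs 0.34 without a gene filter. *Cd9* in monocyte- or dendritic-like cells was -0.024 without TMM factors, -0.49 without shared barcodes and -0.11 thinned. *Fabp5* in SMCs was 0.62 without shared barcodes, and *Lpl* in FBs -0.053 thinned.

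Leaving out 1 library gave, in ECs, -0.030 to 2.21 for *Abca1*, -0.57 to 0.24 for *Cd63* and -0.091 to 0.49 for *Cd9*. In FBs it gave -1.28 to 0.34 for *Abca1*, -1.45 to 7.80 for *Fabp5*, -1.05 to 8.20 for *Lgals3* and -0.38 to 1.88 for *Lpl*. In MΦs it gave -0.26 to 0.81 for *Abca1* and -0.15 to 0.73 for *Lgals3*, in SMCs -2.32 to 9.81 for *Abca1*, -1.09 to 0.87 for *Apoe* and -3.24 to 10.16 for *Fabp5*, and in monocyte- or dendritic-like cells -0.26 to 10.45 for *Apoe*, -0.42 to 0.67 for *Cd9* and -0.49 to 1.34 for *Lgals3*. The difference in the share of MΦs with *Trem2*, *Gpnmb* or *Spp1* (0.981 points) ran from 0.540 to 1.71 points when 1 library was left out. Under the other alternatives it ran from 0.140 (at least 2 of the 3 genes) to 3.15 points, and was 19.4 points with all UMIs counted. None passed the threshold, which 2 against 4 libraries cannot reach. Not run were the filter at 1000 UMIs for the other types, which left too few young cells, and the 10 genes among the variable ones for monocyte- or dendritic-like cells. Young FBs and SMCs are few, so small differences were not detectable at this depth.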
